A study of Mus musculus with 2 samples.

Results

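*Reln* and *Gas1* had promoter regions with some of the lowest accessibility ratios in livers of hepatocyte-specific *Mettl3* knockout mice, and both genes were chosen by these values. All distinct regions of the ATAC-seq table whose closest transcription start site (TSS) is that of *Reln* or *Gas1* were taken as members. This gave 1 region for *Reln* and 3 regions for *Gas1*, or 4 of 69549 regions in all. A region whose centre lay within 1000 bases of the TSS was counted as a promoter region, and *Reln* and *Gas1* had 1 each among 14387 in the table. ATAC-seq measures open chromatin by letting the Tn5 transposase insert adaptors where DNA is accessible. Livers of *Mettl3* flox/flox mice were compared with livers of *Mettl3*-HKO mice, which carry the same floxed alleles plus *Alb*-*Cre* (*Mettl3* flox/flox *Alb*-*Cre*+/-). The albumin promoter drives the recombinase, and the study describes the knockout as hepatocyte-specific. Whether the other liver cells keep *Mettl3* was not measured here. All mice were on a C57BL/6 background, ate normal chow and were 8 weeks old. Tissue of 4 mice was pooled into 1 library per group, called the control library (*Mettl3* flox/flox) and the HKO library (*Mettl3*-HKO) below. There is therefore no replicate error, no test between the groups was possible, and each value below describes these 2 libraries.

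*Reln* encodes reelin, a large secreted glycoprotein best known for guiding neuron positioning in the developing brain. It binds the lipoprotein receptors VLDLR and ApoER2 (*Lrp8*), and the signal passes through the adaptor DAB1 and Src-family kinases. In the liver, reelin is known as a product of hepatic stellate cells, the vitamin A-storing cells of the sinusoid wall. *Gas1* encodes growth arrest-specific 1, a cell surface protein held by a lipid anchor. GAS1 acts with CDON and BOC as a co-receptor that helps Hedgehog ligands reach their receptor Patched, and it is related in structure to the GDNF family receptors.

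The sequences just before both start sites are shown because they lie entirely inside the promoter regions that differed between the libraries. They are the 250 bases before the RefSeq TSS on GRCm38.p6, written 5′ to 3′ on the minus strand, at chr5:22344706-22344955 for *Reln* and chr13:60177536-60177785 for *Gas1*. Capitals mark matches on either strand to the GC box, spelled GGGCGG. They also mark the promoter motif called the CCAAT box, by those letters. The remaining capitals mark the E-box, whose letters are CACGTG.
Reln: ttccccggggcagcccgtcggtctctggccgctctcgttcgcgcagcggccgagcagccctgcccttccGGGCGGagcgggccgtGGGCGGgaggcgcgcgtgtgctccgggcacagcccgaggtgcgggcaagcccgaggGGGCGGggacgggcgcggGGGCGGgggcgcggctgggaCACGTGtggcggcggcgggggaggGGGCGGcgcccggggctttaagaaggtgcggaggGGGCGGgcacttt
Gas1: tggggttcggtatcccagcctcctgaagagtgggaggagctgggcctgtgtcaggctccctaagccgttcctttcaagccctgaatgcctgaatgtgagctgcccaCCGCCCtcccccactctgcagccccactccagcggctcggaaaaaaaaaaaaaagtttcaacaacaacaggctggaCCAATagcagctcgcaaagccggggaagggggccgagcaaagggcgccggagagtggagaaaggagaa

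The 2 promoters differed in base composition. The *Reln* sequence was 80.0% G and C with 37 CpG sites, and only 1.1% of the 32851 RefSeq windows of the same length were richer in G and C. The *Gas1* sequence was 58.8% G and C with 10 CpG sites, and 29.9% of windows were richer. The median window had 52.4% and 6 CpG sites. The *Reln* window held 6 GC boxes, the nearest starting 13 bases before the TSS, and 1 E-box starting 71 bases before it. The *Gas1* window held 1 GC box, on the opposite strand and starting 144 bases before the TSS, and 1 CCAAT box starting 68 bases before it. Of all windows, 32.7% held a GC box, 33.8% a CCAAT box and 6.02% an E-box. Neither promoter matched TATAAA, which 12.4% of windows held, or the AP-1 motif TGANTCA, which 6.75% held. No motif searched here other than the GC box was found in both.

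The deposited counts were scaled to totals of 52826202 reads in the control library and 58038305 in the HKO library, with 1 read added to each count. Values in RPM, the count plus 1 divided by the library total in units of 1000000 reads, and log2 ratios of the HKO over the control library follow this scale. The range in parentheses after a ratio is the exact (Clopper-Pearson) 95% interval for how the counts divide between the libraries, expressed as a log2 ratio, and covers counting error only. Of the first library's reads 31.7% lay on regions, against 22.3% of the second's, and the median log2 ratio was −0.38 over all regions and −0.56 over promoter regions. Other scalings therefore raise every ratio by 0.38 to 0.65, and the direction of a ratio between −0.65 and 0 depends on the scaling. A region with a peak in 1 library only was listed through that library, so its ratio tends towards that library by construction. *Mettl3* itself had a region at its start, outside the floxed exons, so open chromatin does not check the genotype here.

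The *Reln* promoter held far fewer reads in the HKO library. Its region on chromosome 5 from 22344266 to 22345586 spans the TSS from the intergenic side into exon 1, and its centre lay 223 bases upstream. It had 690 counts in the control library and 132 in the HKO library. This corresponds to 13.1 and 2.29 RPM, a 5.71-fold lower level in the HKO library and a log2 ratio of −2.51 (−2.80 to −2.25). Per base, the region stood 27.0-fold above the genome average in the control library and 4.74-fold above it in the HKO library. The chromatin was thus lower but still enriched, and a peak was called in both libraries. Bulk liver mixes cell types, and in such libraries fewer cells of a type and less open chromatin per cell cannot be told apart. The region was 1321 bp long, and 7.99% of promoter regions were longer. The authors list 6 peak summits in it without naming their library. They fall into 3 pairs, at 250 and 264 bases downstream, at 157 and 189 bases upstream, and at 534 and 680 bases upstream of the TSS.

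At *Gas1* the lower level extended over the start of the gene, beyond the promoter region itself. The promoter region, on chromosome 13 from 60177132 to 60177918, had 646 counts in the control library and 133 in the HKO library. These are 12.2 and 2.31 RPM, a 5.30-fold lower level with a log2 ratio of −2.41 (−2.70 to −2.14). A peak was called in both libraries, and the enrichment over the genome was 42.5-fold and 8.01-fold. The table places the *Gas1* TSS 170 bases inside the RefSeq start, and the region covers both, reaching into the 5′ UTR.

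The second *Gas1* region, from 60178469 to 60178728, lay 1233 bases upstream of the TSS. It had 207 and 62 counts, or 3.94 and 1.09 RPM, a log2 ratio of −1.86 (−2.31 to −1.46). Its interval overlaps that of the promoter. The third *Gas1* region, from 60182460 to 60182669 and 5199 bases upstream, held few reads and nearly the same number in each library. It had 36 and 37 counts, or 0.70 and 0.655 RPM, a log2 ratio of −0.10 (−0.80 to 0.61), which became 0.28 once the median of all regions was set to 0. A peak was called there in the HKO library only. Its interval lies wholly above those of the other *Gas1* regions, so the low ratio of the promoter was not found 5 kb upstream.

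Within the gene, a further region from 60175843 to 60176785 is centred 1052 bases from the *Gas1* TSS. The exon that holds it is labelled the last exon of *Gas1*, which does not mean that others come before it. The table assigns it to ENSMUSG00000114433, a gene without a symbol on the opposite strand whose TSS lies 368 bases away and whose last exon runs across the *Gas1* promoter. ATAC-seq has no strand, so accessibility of these start sites cannot be told apart. The region had 410 and 86 counts, or 7.78 and 1.5 RPM, a log2 ratio of −2.38 (−2.74 to −2.05). A peak was called in the control library only. The last-exon, promoter and first upstream regions together span 2886 bp and held 1263 and 281 counts, a log2 ratio of −2.30 (−2.50 to −2.12).

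**Figure D1:**
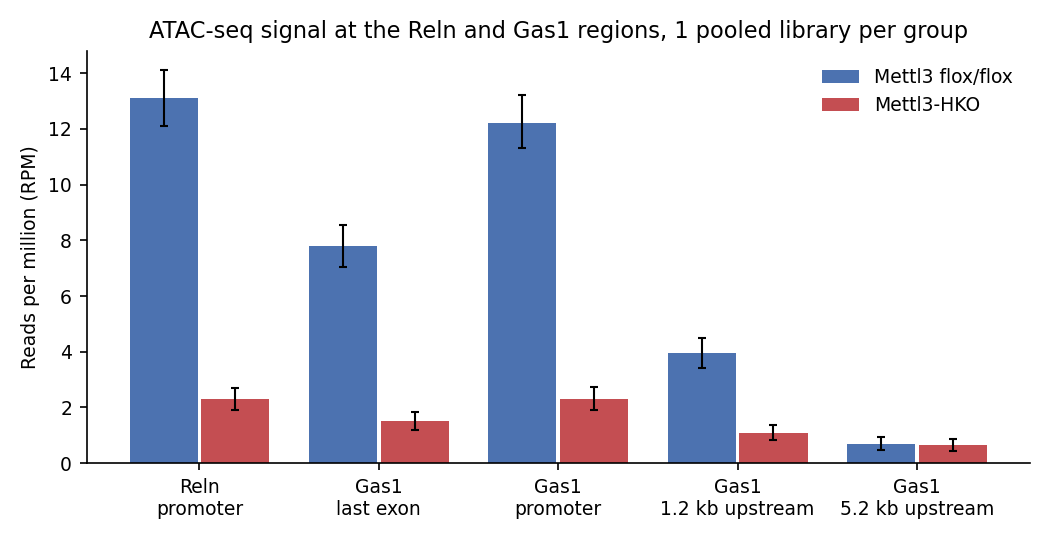
RPM (y axis) in the control library (blue) and the HKO library (red) for the *Reln* promoter, the region in the *Gas1* last exon and the 3 regions assigned to *Gas1*. Error bars are 95% exact Poisson intervals of the counts. The first 4 regions were lower in the HKO library, with the *Reln* promoter at 13.1 and 2.29 RPM, whereas the region 5.2 kb upstream of *Gas1* was at 0.70 and 0.655 RPM.

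Among the 4 members, 3 were lower by a factor of 2 or more in the HKO library, as were 18.3% of all regions and 16.3% of promoter regions. Since these ratios led to the choice of the genes, nothing is read from that count. The ranks that follow describe the values by which the genes were chosen. From the lowest ratio, the *Reln* promoter ranked 19 and the *Gas1* promoter 29 among the 14387 promoter regions. They can also be set against promoters of like signal. Of the 3878 promoter regions with a mean RPM within 1.5-fold of that of *Reln*, 3 had a ratio as low, *Reln* included, and their median was −0.63. For *Gas1*, 5 of 3827 did, also with a median of −0.63. In the control library, 29.4% of promoter regions had more counts than that of *Reln* and 31.7% more than that of *Gas1*. In the HKO library, 68.1% and 67.9% had more.

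**Figure D2:**
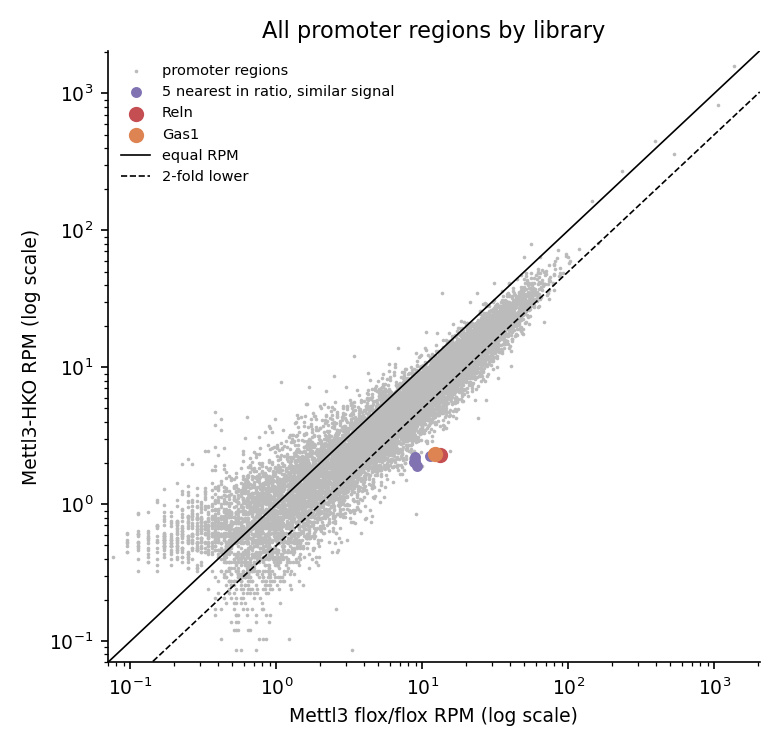
RPM of all 14387 promoter regions in the control library (x axis, log scale) and the HKO library (y axis, log scale), with *Reln* in red, *Gas1* in orange and the 5 genes nearest in ratio at similar signal in purple. The solid line marks equal RPM and the dashed line a 2-fold lower level. *Reln* and *Gas1* lie side by side below the dashed line, at 13.1 and 12.2 RPM on the x axis.

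The distance of 1000 bases that defines a promoter region fell between the *Gas1* regions. The member farthest inside it was *Reln* at 223 bases, with the log2 ratio of −2.51, and the first outside was the *Gas1* region at 1233 bases, with −1.86.

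From the *Reln* promoter region into the gene, no region was listed for 9.43 kb, so how far the low ratio extends was not measured. *Reln* covers 460 kb of chromosome 5 on the minus strand, from 21884454 to 22344702, and 6 further regions lie inside it, all closest to the TSS of another gene in the table. In intron 1, 9.97 kb into the gene, the region from 22334637 to 22334836 was higher in the HKO library, with 11 and 27 counts and a log2 ratio of 1.09 (0.10 to 2.32). In intron 3, 120 kb into the gene, 18 and 36 counts gave 0.83 (0.01 to 1.77). Both are weak regions, at most 0.638 RPM, and both were listed through a peak in the HKO library only.

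Farther into the gene the ratios were near or below 0. The region in intron 8 had 71 and 78 counts, with an interval from −0.48 to 0.48. The region in intron 30 had 32 and 19 counts, a log2 ratio of −0.86 (−1.79 to −0.02), and that in intron 51 had 46 and 21, a log2 ratio of −1.23 (−2.09 to −0.49). The regions in introns 30 and 51 were both listed through a peak in the control library only. The region centred in exon 62, from 21896663 to 21897015 and 448 kb from the TSS, had the most reads of the 6 in the control library and a peak in both. Its 118 and 47 counts gave −1.45 (−1.98 to −0.96). Thus 2 of the 6 regions inside *Reln* were at least 2-fold lower and 1 at least 2-fold higher, against 18.3% and 13.2% of all regions. This tally depends on the scaling, with 0 or 1 lower and 2 higher under the others. None of the 6 intervals overlaps that of the promoter.

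Upstream of *Reln* no region was listed for 86.1 kb. The next 3 regions, 87.4 to 142 kb upstream, had 301 and 271, 133 and 118, and 372 and 365 counts, with log2 ratios of −0.29, −0.31 and −0.16. These were near the median of all regions, and each turned positive once that median was set to 0. The region 167 kb upstream, assigned to *Orc5*, a subunit of the origin recognition complex, had 33 and 18 counts and −0.98 (−1.93 to −0.14). It had a peak in the control library only. Of the 6 regions within 200 kb of the *Reln* promoter region, 0 were at least 2-fold lower and 1, in intron 1, was at least 2-fold higher, against 18.3% and 13.2% of all regions.

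Around *Gas1*, all 6 regions within 200 kb of the members lie on the downstream side of the TSS, and all had a log2 ratio below 0, from −2.38 to −0.81 with a median of −1.38. This direction held under each scaling tried. At least 2-fold lower were 4 of these 6, against 18.3% of all regions, and they include the last-exon region that adjoins the promoter chosen for its low ratio. Past the 3′ end, the region 3.62 kb from the TSS had 109 and 61 counts, a log2 ratio of −0.96 (−1.45 to −0.51). The region 14.7 kb away had 67 and 22 counts, a log2 ratio of −1.70 (−2.51 to −1.03), and a peak in the control library only. A pair near 52 kb, inside the lncRNA gene *Gm46420* of RefSeq, had 82 and 28 and 34 and 21 counts, or −1.65 and −0.81. Both regions of this pair, like the last-exon region, had a peak in the control library only. The farthest, 66.6 kb away inside the lncRNA gene *A530065N20Rik*, was the strongest, with 600 and 303 counts. Its log2 ratio was −1.12 (−1.33 to −0.92), which lies wholly above the interval of the *Gas1* promoter, and it was no longer 2-fold lower under the other scalings.

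On the other side of *Gas1*, beyond the member 5199 bases upstream, no region was listed for 296 kb. The first one there, from 60479046 to 60480169, had 201 and 78 counts and a log2 ratio of −1.49. A difference between the *Reln* and *Gas1* neighbourhoods was not tested.

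**Figure D3:**
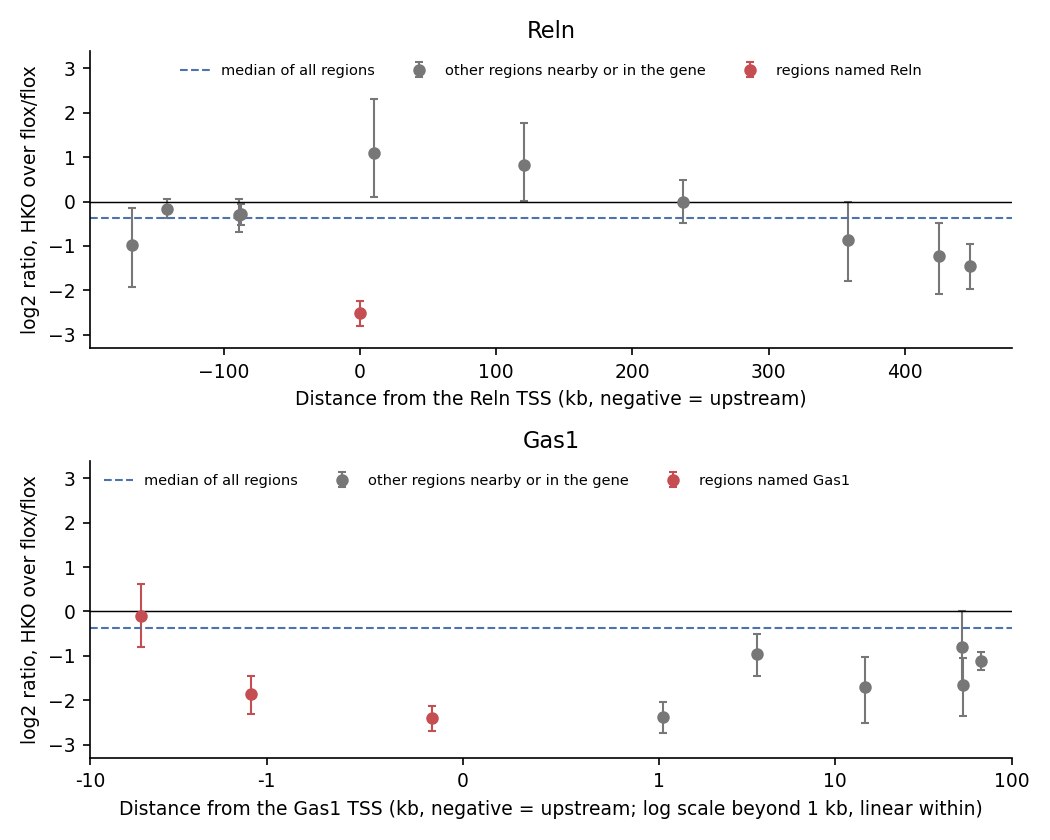
Log2 ratio of the HKO over the control library (y axis) against the distance from the TSS in kb (x axis, upstream negative; for *Gas1* on a log scale beyond 1 kb) for the regions assigned to each gene (red) and the other regions nearby or inside it (grey). Bars are 95% Clopper-Pearson intervals and the dashed line is the median of all regions, −0.38. The *Reln* promoter, at −2.51, has the lowest ratio among the regions around and inside its gene, and the regions downstream of the *Gas1* TSS lie between −2.38 and −0.81.

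The 5 genes whose promoter regions were nearest in log2 ratio to *Reln* at similar signal, among 3417 with a symbol, were the same as those nearest to *Gas1* among 3356. This is partly built in, since the members have nearly the same ratio and signal. The 4 described here differed from *Reln* by 0.25 to 0.49 and from *Gas1* by 0.15 to 0.39 in log2 ratio. *Map3k15*, a kinase of the MAPK cascade, had 483 and 110 counts, a log2 ratio of −2.26. *Ttc30a1*, a component of intraflagellar transport in cilia, and *Nox4*, an NADPH oxidase, were both at −2.10, with 466 and 119 and 462 and 118 counts. *Mfsd2a*, a transporter of lysophosphatidylcholine, had 472 and 127 counts, a log2 ratio of −2.02. The likeness rests on 2 libraries only.

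The rest of the reelin pathway did not share the low value of *Reln*. Of its 17 other genes, 14 had a region and 12 a promoter region. The median log2 ratio of those 12 promoter regions, with the strongest per gene, was −0.56, the same as over all promoter regions. At least 2-fold lower was 1 of the 12, against 16.3% of promoter regions, and 0 under each of the other scalings. At least 2-fold higher was 1, against 4.07%. Below 0 were 10, but only 3 of them stayed there once the median of the strongest 10% of promoter regions was set to 0.

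Among the receptors, *Vldlr* had no promoter region but 1 in intron 1, with 118 and 83 counts and −0.64 (−1.07 to −0.23), and a second 40609 bases upstream, with 42 and 46 counts. *Lrp8* had no region. *Dab1*, the adaptor that the receptors bind, had 33 counts in each library at its promoter, −0.14 (−0.88 to 0.61). *Itga3*, a subunit of the integrin that binds reelin, had 132 and 79 counts, a log2 ratio of −0.87 (−1.30 to −0.46), and its partner *Itgb1* had 841 and 693, a log2 ratio of −0.41.

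The kinase genes had promoters above 0 and other regions on either side. *Src* had 20 and 53 counts at its promoter, a log2 ratio of 1.23 (0.50 to 2.09), and 17 and 94 counts in a second region 1239 bases upstream, a log2 ratio of 2.26, both with a peak in the HKO library only. Another *Src* region, in intron 1, had 59 and 36 counts, a log2 ratio of −0.83 (−1.49 to −0.23). *Fyn*, the main kinase of DAB1 in neurons, had 175 and 263 counts at its promoter, a log2 ratio of 0.45 (0.17 to 0.74). Its strongest region, in intron 1, had 303 and 230 counts, a log2 ratio of −0.53 (−0.79 to −0.28), whose sign depends on the scaling. Downstream, the lowest promoter was that of *Rapgef1*, an exchange factor for Rap1, with 350 and 184 counts and −1.06 (−1.33 to −0.80). The adaptors *Crk*, *Crkl* and *Nck2* stood at −0.59, −0.56 and −0.66, and *Pafah1b1*, the LIS1 protein of neuronal migration, at −0.64. *Socs7*, which takes part in the turnover of DAB1, stood at −0.57, and *Adamts3*, a protease that cleaves reelin, at −0.53 in its stronger promoter region. These adaptors and enzymes other than *Rapgef1* thus lay close to the median of all promoter regions.

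Besides *Gas1*, the Hedgehog co-receptors include *Cdon* and *Boc*. *Cdon* had 1546 and 787 counts at its promoter, a log2 ratio of −1.11 (−1.24 to −0.99). *Boc* had no promoter region. The only region assigned to it, 39303 bases upstream of its TSS, had 145 counts in the control library and 7 in the HKO library, a log2 ratio of −4.33 (−5.85 to −3.43), with a peak in the first only. At such a distance the table's link to *Boc* rests on proximity alone. The *Cdon* and *Boc* values keep their sign under each scaling, although *Cdon* was no longer 2-fold lower once the median of all regions was set to 0. *Lrp2*, listed beside them, had no promoter region but 2 others. The first had 82 and 61 counts, a log2 ratio of −0.56 with a sign that depends on the scaling. The second had 10 and 29 counts, a log2 ratio of 1.31, and a peak in the HKO library only.

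The other Hedgehog genes were mixed. Of the 21 genes other than *Gas1*, 17 had a region and 9 a promoter region, with a median log2 ratio of −0.18, above the −0.56 of all promoter regions. *Ptch1*, the receptor, had 871 and 560 counts, a log2 ratio of −0.77 (−0.93 to −0.62). *Smo*, the transducer that Patched holds in check, had 226 and 162 counts, a log2 ratio of −0.61, and *Sufu*, an inhibitor of the GLI factors, had 263 and 176, a log2 ratio of −0.71. The ligand gene *Ihh* had 45 and 50 counts at its promoter, a log2 ratio of 0.01, and a peak in the HKO library only. Its other 3 regions, inside the gene, held more reads and stood at −0.96, −0.82 and −0.49, the last with a sign that depends on the scaling. *Shh* had no region. At least 2-fold lower was 1 of the 9, *Cdon*, against 16.3% of promoter regions, and at least 2-fold higher was 1, *Gli2*, against 4.07%. The *Gli2* promoter had 18 and 47 counts, a log2 ratio of 1.2 (0.44 to 2.12), and a peak in the HKO library only. *Gli3*, *Kif7* and *Disp1*, with 27 to 53 counts per library, were not distinguishable from 0 at this depth.

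**Figure D4:**
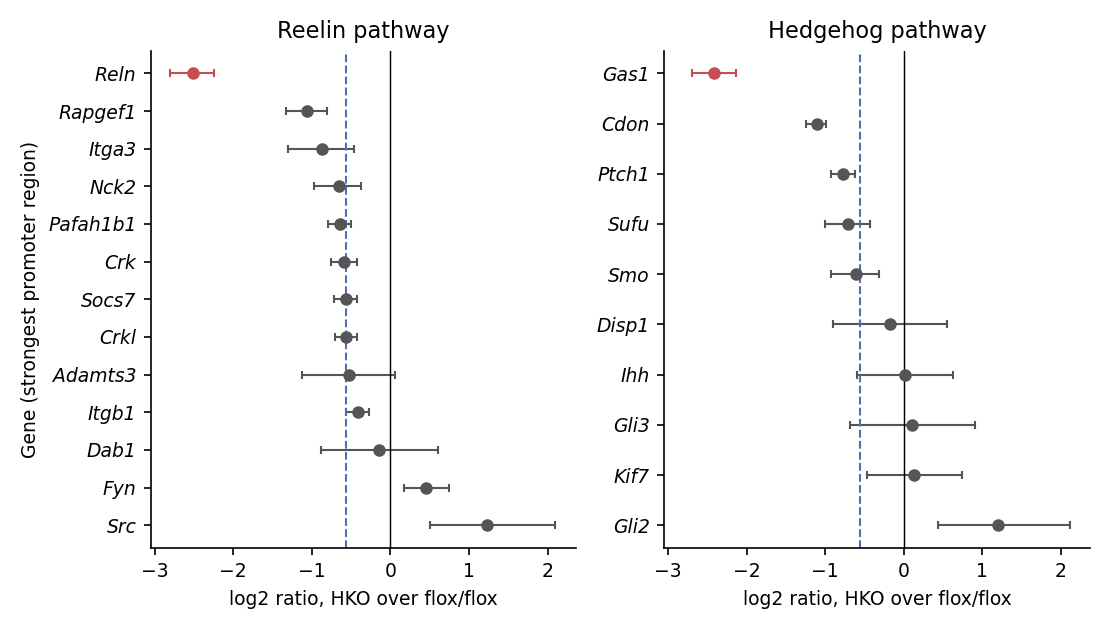
Log2 ratio of the HKO over the control library (x axis) at the strongest promoter region of each gene of the reelin pathway (left) and the Hedgehog pathway (right), with 95% Clopper-Pearson intervals. *Reln* and *Gas1* are in red and the dashed line is the median of all promoter regions, −0.56. *Reln* at −2.51 and *Gas1* at −2.41 lie below every other gene shown.

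The GDNF family receptors, to which GAS1 is related, held 1 gene with many regions. *Gfra1*, the co-receptor of GDNF, had 13 regions. All 13 had a log2 ratio below 0, from −2.35 to −0.56, although the highest, at −0.56 and −0.63, turn positive once the median of the strongest 10% of promoter regions was set to 0. At least 2-fold lower were 8, against 18.3% of all regions, but only 2 or 3 under the other scalings. Its promoter region, centred 300 bases upstream of the TSS, had 733 and 240 counts and −1.74 (−1.96 to −1.53). Its lowest region, 41935 bases into the gene in intron 4, had 110 and 23 counts, a log2 ratio of −2.35. The regions of *Gfral*, 2 in number, stood at −1.32 and −1.18. *Ret*, the kinase that these receptors engage, had 1 region with 64 and 83 counts, a log2 ratio of 0.23 (−0.25 to 0.73). *Gfra2*, *Gfra3* and *Gfra4* had none. Regions of 1 gene share their locus and are not independent.

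*Reln* is itself on the list of stellate cell markers used here, and the other markers on it did not share its value. Of those 14, 7 had a region and 4 a promoter region, with a median log2 ratio of 0.44, and of these 4 promoters 3 lay above 0 and 1 below. *Hand2*, a transcription factor of stellate cells, had 9 and 34 counts at its promoter, a log2 ratio of 1.67 (0.69 to 3.03), and a peak in the HKO library only. *Hgf*, hepatocyte growth factor, had 71 and 138 counts, a log2 ratio of 0.81 (0.40 to 1.26). *Col1a1* had 37 and 43, a log2 ratio of 0.08 (−0.59 to 0.76). Over all 16 regions of these markers, 2 were at least 2-fold lower and 3 at least 2-fold higher, with a median of 0.31, against 18.3% and 13.2% of all regions. Under the other scalings 0 or 1 were lower and 7 or 8 higher by that fold. Summed over the 4 promoters the level was 6.06 RPM in the control library and 6.08 RPM in the HKO library. The defining markers *Lrat*, *Des*, *Pdgfrb*, *Ngfr*, *Colec10*, *Colec11* and *Gfap* had no region.

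The markers of hepatocytes, the labelled tissue's main cells, all had a region, and 7 of 8 had a promoter region. Their median was −0.76 and their summed level 93.6 and 52.6 RPM, of which *Pck1* alone held 44.5 and 18.9 RPM. *Cyp3a11*, the marker without a promoter region, had 7 regions, all above 0 at 0.39 to 1.34, and 4 of them were at least 2-fold higher, against 13.2% of all regions. Over all 60 hepatocyte regions, 15 were at least 2-fold lower and 5 at least 2-fold higher, with a median of −0.66, against 18.3% and 13.2% of all regions. Under the other scalings 1 to 4 were lower and 6 to 9 higher by that fold. Of the 7 promoters, 2 were at least 2-fold lower, against 16.3% of promoter regions, and 0 under each of the other scalings. Sinusoidal endothelial markers stood at a median of 1.60 at 7 promoters, with a sum of 3.03 and 7.01 RPM. At least 2-fold higher were 5 of them, against 4.07% of promoter regions, and all 5 had a peak in the HKO library only. Over all 31 regions of this list, 2 were at least 2-fold lower and 16 at least 2-fold higher, with a median of 1.16, against 18.3% and 13.2% of all regions. Under the other scalings 0 were lower and 18 to 21 higher by that fold. The 2 lower regions were 1 of *Stab2*, with 527 and 256 counts and −1.17, and 1 of *Lyve1*, with 66 and 31 counts and −1.20. The other lists had fewer promoter regions. Of the macrophage markers, 2 of 8 had a promoter region, with a median of 1.29 and a sum of 1.04 and 1.96 RPM, and both had a peak in the HKO library only. Of the macrophage regions outside promoters, 1 lying 18458 bases upstream of *Marco* had 457 and 7 counts, a log2 ratio of −5.97 (−7.49 to −5.11). The *Adgre1* regions stood at −0.85 and −0.42, the latter with a sign that depends on the scaling. The second *Marco* region stood at 1.91, that of *Clec4f* at 1.07, and those of *Csf1r* at 0.62 and 0.10. Over all 12 regions of the macrophage list, 1 was at least 2-fold lower and 4 at least 2-fold higher, with a median of 0.51, against the same shares of all regions. Of the cholangiocyte markers, 5 of 8 did, with a median of −0.19 and a sum of 15.8 and 12.1 RPM. The single promoters of the portal fibroblast list (*Entpd2*, 0.59) and the lymphatic endothelial list (*Lyve1*, 1.76) were higher in the HKO library. That of *Lyve1* had a peak in the HKO library only. Other regions of these lists went both ways. The *Eln* region stood at −0.78, the *Fbln2* regions at −0.87 to −0.30 and the *Prox1* regions at −1.18 to −0.22. Of 7 portal fibroblast regions 0 were at least 2-fold lower and 2 higher, with a median of −0.30. Of 10 lymphatic regions 2 were lower and 4 higher by that fold, with a median of 0.13, against the same shares of all regions. No lymphocyte marker had a promoter region. The part of these markers in the *Reln* and *Gas1* values was not tested.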

How the data were processed

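One ATAC-seq library of *Mettl3* flox/flox livers and one of *Mettl3*-HKO livers were used, with groups taken from the sample labels. Per the study's methods, reads were trimmed with skewer, aligned with BWA (GRCm38 per the labels) and kept when properly paired, non-mitochondrial and at a mapping quality of 13. Peaks were called with MACS2 with duplicates kept. The way of counting reads per region, and any shift of read ends for Tn5, is not given in the sources used here. The authors deposited for each region raw counts, RPM (count plus 1, over the library total in units of 1000000 reads), a ratio of read density over that of the genome (fold enrichment), marks for peaks called (a + or − with no score), and a log2 ratio of the libraries, which was not used. Of 74821 rows, 5272 repeated a region and were dropped. Starts were converted to count from 1.

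Ratios were recomputed from the counts. A fold of 2 counted as a change. No test was run, because each group is 1 library. Duplicate reads make counts less independent than the intervals assume. The scripts were tested on simulated counts. The members, gene lists and motifs were chosen with earlier results of these data known. Genes named are the members, those of the 11 lists, neighbours, and the 5 promoters nearest in ratio within 1.5-fold of mean RPM. Values of 1 of these promoters and of 1 marker gene are not reported here. Promoter sequences are from RefSeq (GRCm38.p6), and both members matched. The software was scipy 1.17.1, pandas 2.3.3 and numpy 2.4.6 under Python 3.11.15, with matplotlib 3.10.9 for figures.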

Additional observations from a re-analysis of the deposited data

How the results depend on the processing

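The *Reln* and *Gas1* promoter ratios stayed negative under all alternatives tried, and 3 of the 4 members stayed at least 2-fold lower, but the size depends on the scaling. The *Reln* log2 ratio of −2.51 became −2.14 once the median of all regions was set to 0, −2.0 when scaled to the counts in regions and −1.87 once the median of the strongest 10% of promoter regions was set to 0. The *Gas1* ratio of −2.41 became −2.03, −1.90 and −1.76. With 10 reads added, with the sum over promoter regions or with a window of 2000 bases, both moved by less than their counting interval. The background moved more. Regions at least 2-fold lower went from 12714 to 5489, 3996 and 2872 under the same 3 scalings, and promoter regions from 2352 to 720, 453 and 286. At a fold of 1.5 there were 27018 and 6879. Neighbours lower by that fold were 7 in place of 4. The 3 scalings left 3 neighbours, and the other alternatives left 4. Depth limits the weak regions, such as the *Gas1* region 5199 bases upstream, where 36 and 37 counts allow a log2 ratio from −0.80 to 0.61.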
